A study of Mus musculus with 8 samples.

Results

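Neuronal cytoskeleton, vesicle and migration genes were followed in the caudal urogenital ridge of mouse embryos that lack Sox11. The set held 43 genes, listed by name, of the 19356 genes measured. Of them 42 had a usable probe set. Vamp2, which encodes a membrane protein that drives vesicle fusion, was not used here because its probe set also names Ubr3. The list was put together with earlier results of these arrays known, so its direction is a description and gives no independent support to anything. Where a gene had several probe sets the one brightest across the 8 arrays stands for it, and genes were grouped by role and by their signal in wildtype.

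The wildtype group was 4 arrays of the caudal urogenital ridge of wildtype embryos at E10.75, and the knock-out group was 4 arrays of the same tissue from Sox11-/- embryos at the same stage. All mice were on a mixed genetic background and received no treatment. The labels call the replicates independent. The sources used here give neither how the Sox11 allele was made nor how many embryos went into each replicate. Values are log2 signals, made by the authors with RMA, and each change below is knockout minus wildtype on that scale, with a standard error (SE). A gene was called when its p-value from limma, adjusted over all 19356 genes, was under 0.05.

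Young neurons build their axons from microtubules. Tubulins form the polymer, doublecortin and the MAP proteins hold it together, stathmins bind free tubulin, kinesins carry cargo along it, and neurofilaments fill the mature axon. Vesicles move along these tracks to the membrane, where synaptotagmins sense calcium and SNARE proteins drive fusion, while granins fill the dense-core granules of neuroendocrine cells. Sox11 and its relative Sox4 are transcription factors of immature neurons, and Dcx, Tubb3 and Stmn2 are among the genes described as their targets. Cells of the neural crest lineage that become sympathetic neurons and nerve-associated cells lie near the ridge at this stage.

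Sox11 itself read 11.76, 11.81, 11.72 and 11.86 on wildtype arrays 1 to 4 and 9.24, 9.13, 8.93 and 9.12 on knockout arrays 1 to 4, so the labels matched the targeted gene on every array. Where its probes lie against the deleted part was not analysed here. Of 10 urogenital ridge genes, among them Osr1, Wt1, Eya1 and Gata3, 8 had a wildtype signal above the upper quartile of all genes, and limma called 1, Six2, a factor of nephron progenitors, which fell by 0.48 (SE 0.10, adjusted p = 0.0437, and up to 0.122 with 1 array left out). The mean signal of these 10 ran from 10.07 to 10.21 on the wildtype arrays and from 10.06 to 10.12 on the knockout arrays. That mean does not show shifts in opposite directions. At a limma unadjusted p under 0.05, 3 were lower and 2 higher, against 9.38% and 7.29% of all genes. Beside Six2 these were Eya1 at -0.28 (SE 0.06), Hoxd11 at -0.23 (SE 0.08), Lhx1 at 0.42 (SE 0.09) and Gata3 at 0.25 (SE 0.06). In whole tissue, fewer cells of a type and less RNA per cell cannot be told apart.

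Promoter sequence was matched for 27 of the 43 genes in the RefSeq table of GRCm38.p6. It was searched for ACAAAG, a short form of the site that Sox factors bind, because the set was studied in Sox11 knockouts. The 250 bases before any listed start held it on either strand in 9 of the 27 genes, and in 16.7% of the 15191 genes on the array that have such a window. A gene with several starts has more windows in which to match, such as Elavl2 with 6 and Rtn1 with 3. All 15191 genes together had 18739 windows, and the shares were not adjusted for this. Of the 10 genes among the 27 that were lower in knockout, 4 held it. The windows of 30 bases around these matches are shown 5′ to 3′ on the gene's strand with the match in capitals, first for the genes that were lower and then for the rest. CTTTGT is the same match on the other strand.
Dcx, chrX:143933125-143933154 (minus strand): tttcttgcttggagctcagacaACAAAGgc
Rtn1, chr12:72235873-72235902 (minus strand): tggaggggagaaACAAAGccgtggcggctg
Astn1, chr1:158362144-158362173 (plus strand): gatttttgcattACAAAGacgcaattttaa
Apba2, chr7:64501888-64501917 (plus strand): catCTTTGTctgcgctttgcgcggccgcgc
Elavl2, chr4:91400093-91400122 (minus strand): atcacagtcattACAAAGgggccgctctgt
Nsg2, chr11:32000171-32000200 (plus strand): acaaaacaaaaaACAAAGtgcctgcttttt
Scg3, chr9:75684277-75684306 (minus strand): aattagACAAAGattacccatgtctccttg
Stmn3, chr2:181314596-181314625 (minus strand): tctctaagatacACAAAGccatattacagg
Syt1, chr10:109009170-109009199 (minus strand): ctctgatctaagCTTTGTtttcctattatt
In Dcx the match began 8 bases before the start, and in Astn1 it began 148 bases before it. Counted the same way, the matches of Rtn1 and Apba2 began at 144 and 247 bases. Genes that were lower and genes that were not called thus both carried the letters. A match is a description of the sequence and not a bound site.

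A second form of the Sox site, AACAAT, lay in the windows of 2 of the 27 genes (Rtn1 and Elavl4), against 8.55% of all genes. The REST element, through which the repressor REST silences neuronal genes outside the nervous system, was searched by a pair of its cores. TTCAGCACC lay in the window of Nsg2 only, against 0.382% of all genes, and GGACAGC in those of Map2 and Rtn1, against 6.87%. Nsg2 and Rtn1 each carried both a Sox form and a REST core, before different starts. The longer core, in Nsg2, is shown in capitals.
Nsg2, chr11:32000487-32000516 (plus strand): agggctgcttttTTCAGCACCacgctctgg
Nsg2 itself, a membrane protein of neuronal endosomes, was not called (change -0.26, SE 0.12, limma adjusted p = 0.304). Rest had a change of -0.22 (SE 0.08, limma adjusted p = 0.186).

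Knockout ridges had lower signal for 13 of the 42 genes, and for 0 of them was it higher. These were Syt5, Nsg1, Apba2, Rtn1 and Syt11 of vesicle and membrane traffic, Dcx, Kif5c, Tagln3, Tubb2b and Dclk1 of the cytoskeleton, Astn1 and Gpc2 of the cell surface, and Mllt11. Over all genes 1.08% were called lower, 0.362% higher and 1.44% either way. Because the list was chosen with results known, nothing is read from the member count against that background. At an unadjusted p under 0.05, 18 of the 42 were lower and 0 higher, against 9.38% and 7.29% of all genes. The 42 changes had a median of -0.23 and ran from -1.14 to 0.28, with 33 below 0, and over all genes the median was 0.00 to 2 decimals with 50.1% below 0. In 14 of the 42 every knockout array lay below every wildtype array, against 6.47% of all genes, and in 0 did every knockout array lie above, against 4.04%.

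**Figure D1:**
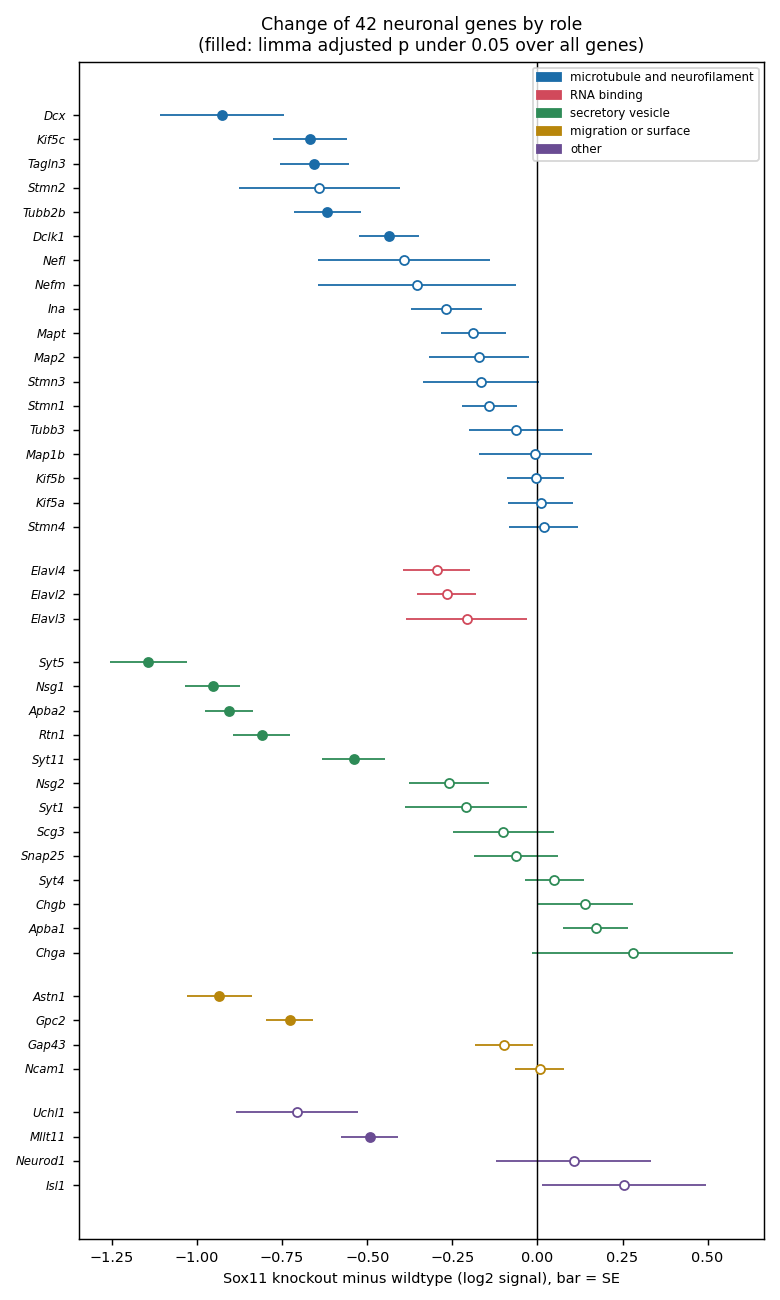
Change of each of the 42 genes (horizontal axis, knockout minus wildtype in log2 signal, bar = SE) in rows grouped by role, with filled points for genes called by limma over all genes. The 13 filled points all lie below 0, from -1.14 for Syt5 to -0.44 for Dclk1.

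Of the 18 microtubule and neurofilament genes, 5 were lower, against 1.08% of all genes, and 13 were not called. As for the whole list, nothing is read from the counts by role. Their changes ran from -0.93 to 0.02 with a median of -0.23. Dcx, the microtubule-binding protein of migrating neurons, read 8.41, 8.38, 8.83 and 8.90 on the wildtype arrays and 7.45, 7.38, 8.19 and 7.79 on the knockout arrays. Knockout replicate 3 came closest to the wildtype arrays, without overlap. Dcx was 1.90-fold lower (change -0.93, SE 0.18, limma adjusted p = 0.0384). Dclk1, a kinase with the same kind of microtubule-binding domain, read 7.93, 7.92, 7.91 and 8.02 in wildtype and 7.63, 7.33, 7.40 and 7.69 in knockout. The wildtype arrays were close together (SD 0.05) and all lay above the knockout arrays. The change was -0.44 (SE 0.09, limma adjusted p = 0.0417). Dclk2, the other close relative, was at -0.21 (SE 0.08) and not called (limma adjusted p = 0.236). The Dcx call was lost without each array but knockout replicate 3, and that of Dclk1 without each array but knockout replicate 4, with limma adjusted p-values up to 0.113 and 0.109. Both also missed the threshold after median centring of the arrays (0.0518 and 0.0649).

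Tubb2b is a beta-tubulin of newborn neurons. Its signal was 11.77, 11.72, 11.77 and 11.37 on the wildtype arrays and 11.08, 11.08, 10.89 and 11.11 on the knockout arrays. Wildtype replicate 4 stood below the other wildtype arrays, yet above every knockout array. Tubb2b was 1.53-fold lower (change -0.62, SE 0.10, limma adjusted p = 0.0150). Tubb3, the beta-tubulin most used as a mark of neurons, read 6.89, 6.91, 6.46 and 6.53 in wildtype and 6.39, 6.53, 6.93 and 6.69 in knockout, and the groups overlapped (change -0.06, SE 0.14, limma adjusted p = 0.845). Tubb2a, whose sequence is very close to Tubb2b so that probes may read both, was at -0.07 (SE 0.07, limma adjusted p = 0.674). Tubb4a was at -0.94 (SE 0.22) with a limma adjusted p of 0.0687, and wildtype replicate 4, at 8.31, lay inside the range of its knockout arrays. Without wildtype replicate 2 Tubb2b had a limma adjusted p of 0.0548.

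Kif5c, the heavy chain of a kinesin motor enriched in neurons, read 8.24, 8.46, 8.42 and 7.98 in wildtype and 7.68, 7.57, 7.46 and 7.72 in knockout. The lowest wildtype array, replicate 4, stayed above all knockout arrays. Kif5c was 1.59-fold lower (change -0.67, SE 0.11, limma adjusted p = 0.0171). Its paralogs Kif5b, which is made in most cells, and Kif5a, which is neuronal, had changes of -0.01 (SE 0.08) and 0.01 (SE 0.10) with limma adjusted p-values of 0.983 and 0.973. Tagln3, a calponin-related protein of neurons, read 8.20, 8.10, 7.75 and 7.91 in wildtype and 7.43, 7.29, 7.41 and 7.20 in knockout. These groups did not overlap either, and the change was -0.65 (SE 0.10, limma adjusted p = 0.0147). Tagln, which marks smooth muscle, and Tagln2 were at 0.20 (SE 0.27) and 0.09 (SE 0.08) and were not called (limma adjusted p = 0.742 and 0.573). Kif5c missed the threshold without wildtype replicate 2 (limma adjusted p = 0.0542) or knockout replicate 3 (0.0517), and Tagln3 without wildtype replicate 2 (0.0520) or knockout replicate 4 (0.0539).

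Among the stathmins, which take up tubulin dimers, none of the 4 was called by limma, and Stmn2 alone had an unadjusted p under 0.05. Stmn2, the stathmin of growing axons, read 9.53, 9.48, 8.61 and 9.80 in wildtype and 8.83, 8.41, 8.50 and 9.13 in knockout. Wildtype replicate 3 lay among the knockout arrays while the other wildtype arrays lay above all of them. Over all 8 arrays the change was -0.64 (SE 0.24, limma adjusted p = 0.213). Without wildtype replicate 3 it was -0.89 and passed (limma adjusted p = 0.0449). Stmn1, which dividing cells make as well, was at -0.14 (SE 0.08), and Stmn3 and Stmn4, found mostly in neurons, were at -0.16 (SE 0.17) and 0.02 (SE 0.10). A second probe set of Stmn1 gave -0.18.

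The MAP proteins and neurofilaments were not called either. Map2 of dendrites was at -0.17 (SE 0.15), Map1b of growing axons at -0.01 (SE 0.17) and Mapt, which encodes tau, at -0.19 (SE 0.10). Nefl read 9.09, 9.51, 8.88 and 8.59 in wildtype and 9.38, 8.14, 8.49 and 8.50 in knockout. Knockout replicate 1 thus lay within the wildtype range while the other knockout arrays lay below it. Nefm read 8.67, 8.72, 8.10 and 8.05 in wildtype and 8.90, 7.31, 7.82 and 8.09 in knockout, where replicate 1 was the highest of all 8 arrays and replicate 2 the lowest. The changes were -0.39 (SE 0.25) and -0.35 (SE 0.29), and without knockout replicate 1 they were -0.64 and -0.65, with limma adjusted p-values of 0.206 and 0.254. Ina, the intermediate filament of the youngest neurons, was at -0.27 (SE 0.10, limma adjusted p = 0.233). Its second, dimmer probe set gave -0.68 (SE 0.16) and an adjusted p of 0.0722 when limma tested every probe set.

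All 3 RNA-binding genes lay below 0 and none was called by limma. At an unadjusted p under 0.05, 2 were lower, against 9.38% of all genes. The Elavl proteins bind AU-rich RNA and stabilise or splice neuronal transcripts. Elavl2 read 7.48, 7.32, 7.52 and 7.43 in wildtype and 7.29, 7.12, 6.98 and 7.30 in knockout. Its groups did not overlap, by a narrow margin, and the change was -0.27 (SE 0.09, limma adjusted p = 0.163). Elavl4 was at -0.30 (SE 0.10, limma adjusted p = 0.173), and Elavl3 at -0.21 (SE 0.18, limma adjusted p = 0.581) with overlapping groups. Their relative Elavl1, which most cells make, had a change of 0.00 to 2 decimals (limma adjusted p = 0.996). Of 12 other RNA-binding genes of neurons, Rbfox1, a splicing regulator, fell by 0.56 (SE 0.11, limma adjusted p = 0.0417) and 11 were not called. The Rbfox1 call was lost without each array but wildtype replicate 2 and knockout replicate 4 (limma adjusted p up to 0.122).

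Syt5 and Nsg1, the members with the most negative changes, belong to the secretory vesicle and membrane traffic genes. Of the 13 measured, 5 were lower, against 1.08% of all genes, and 8 were not called. The changes spanned -1.14 to 0.28 around a median of -0.21. Syt5, a synaptotagmin of dense-core vesicles, read 8.80, 8.60, 8.88 and 8.48 in wildtype and 7.55, 7.28, 7.63 and 7.72 in knockout. Every wildtype array lay well above the highest knockout array, replicate 4. Syt5 was 2.21-fold lower (change -1.14, SE 0.11, limma adjusted p = 0.00125). Syt11, a synaptotagmin that does not bind calcium, was lower by less (change -0.54, SE 0.09, limma adjusted p = 0.0220), with arrays at 9.51, 9.74, 9.67 and 9.59 in wildtype and 8.96, 9.34, 9.00 and 9.05 in knockout. Knockout replicate 2 was the highest knockout array for Syt11 and the lowest for Syt5. Syt1, the calcium sensor of synaptic vesicles, was at -0.21 (SE 0.18) and Syt4 at 0.05 (SE 0.09), with limma adjusted p-values of 0.581 and 0.805. The Syt11 call was lost without wildtype replicate 2 or 3 and without knockout replicate 1, 3 or 4 (limma adjusted p up to 0.0808).

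Nsg1, an endosomal protein that sorts receptors in neurons, read 9.50, 9.62, 9.67 and 9.63 in wildtype and 8.63, 8.48, 8.83 and 8.65 in knockout. The gap between the groups was wide against the spread within them (SD 0.07 and 0.14). Nsg1 was 1.94-fold lower (change -0.95, SE 0.08, limma adjusted p = 0.000453), beside the -0.26 of its paralog Nsg2 given above. Apba2, an adaptor that binds the amyloid precursor protein and munc18, read 6.47, 6.43, 6.46 and 6.47 in wildtype and 5.50, 5.56, 5.43 and 5.71 in knockout. The wildtype arrays lay almost on 1 value (SD 0.02) and far from the knockout arrays. Apba2 was 1.87-fold lower (change -0.91, SE 0.07, limma adjusted p = 0.000398). Apba1, the other neuronal member, was at 0.17 (SE 0.09, limma adjusted p = 0.395), and Apba3, which most tissues make, at -0.04 (SE 0.06, limma adjusted p = 0.784). Rtn1, a reticulon of the endoplasmic reticulum in neuroendocrine cells, read 7.58, 7.65, 7.47 and 7.51 in wildtype and 6.96, 6.64, 6.68 and 6.69 in knockout. It was 1.75-fold lower (change -0.81, SE 0.08, limma adjusted p = 0.00147), with knockout replicate 1 the nearest to wildtype. Rtn2, Rtn3 and Rtn4 were at -0.28 (SE 0.08), -0.02 (SE 0.06) and -0.09 (SE 0.08) and were not called. Rtn1 and Chga were the 2 members on chromosome 12, which also carries Sox11.

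Snap25 and the granule members Chga, Chgb and Scg3 were not called. Snap25, a SNARE protein of the plasma membrane, read 7.23, 7.50, 7.46 and 7.22 in wildtype and 7.60, 7.00, 7.24 and 7.33 in knockout, so the groups overlapped (change -0.06, SE 0.12, limma adjusted p = 0.827). Chga, the granin chromogranin A, read 7.33, 7.33, 7.18 and 7.64 in wildtype and 8.18, 6.58, 7.72 and 8.12 in knockout. Knockout replicates 1, 3 and 4 lay above every wildtype array and replicate 2 lay below every one of them, with an SD of 0.74 in knockout against 0.19 in wildtype. Its change was 0.28 (SE 0.30, limma adjusted p = 0.664), and without knockout replicate 2 it was 0.64 (limma adjusted p = 0.0655). Chgb and Scg3, which also belong to dense-core granules, were at 0.14 (SE 0.14) and -0.10 (SE 0.15). Of 26 other vesicle genes of neurons, Cpe, the carboxypeptidase that trims prohormones in granules, fell by 0.48 (SE 0.07, limma adjusted p = 0.0126), and 25 were not called. The changes of these 26 had a median of 0.02.

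**Figure D2:**
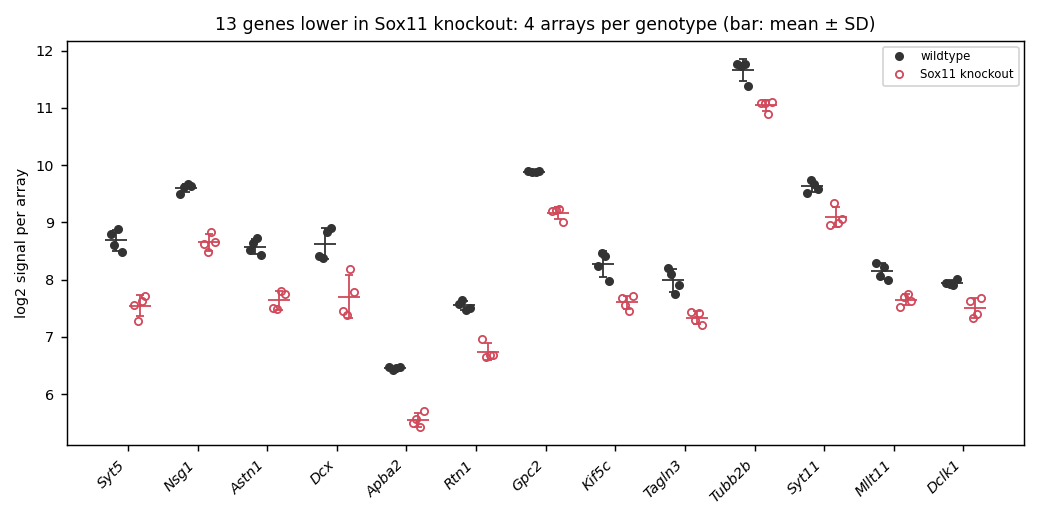
Log2 signal on each array (vertical axis) of the 13 genes lower in knockout, with filled points for the 4 wildtype arrays, open points for the 4 knockout arrays and bars for mean ± SD. In each gene the 4 open points lie below the 4 filled points, and the wildtype points of Apba2 and Gpc2 nearly coincide (SD 0.02 and 0.01).

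Of the 4 migration and surface genes, Astn1 and Gpc2 were lower, against 1.08% of all genes, and Gap43 and Ncam1 were not called. Astn1, a membrane protein with which neurons migrate along glia, read 8.52, 8.63, 8.72 and 8.42 in wildtype and 7.51, 7.49, 7.81 and 7.75 in knockout, without overlap. It was 1.91-fold lower (change -0.93, SE 0.10, limma adjusted p = 0.00147). Its only paralog, Astn2, which controls how much ASTN1 is at the surface, went the other way, with 7.53, 7.56, 7.67 and 7.42 in wildtype and 8.01, 7.86, 8.34 and 8.36 in knockout. Astn2 rose by 0.60 (SE 0.11, limma adjusted p = 0.0355), and every knockout array lay above every wildtype array. That call was lost without each array but knockout replicate 2 (limma adjusted p up to 0.101). Gpc2, a heparan sulfate proteoglycan of growing axons, read 9.90, 9.88, 9.87 and 9.89 in wildtype and 9.20, 9.21, 9.23 and 9.00 in knockout. The wildtype arrays were nearly identical and knockout replicate 4 was the lowest. Gpc2 was 1.66-fold lower (change -0.73, SE 0.07, limma adjusted p = 0.000776). The glypicans Gpc1, Gpc3, Gpc4, Gpc5 and Gpc6 had changes from -0.14 to 0.18 and were not called.

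Gap43, the growth cone protein, was at -0.10 (SE 0.09, limma adjusted p = 0.588). Ncam1, the neural cell adhesion molecule that the intermediate mesoderm also makes, read 11.16, 11.10, 11.22 and 11.25 in wildtype and 11.21, 11.05, 11.19 and 11.31 in knockout, with a change of 0.01 (SE 0.07, limma adjusted p = 0.975). Among 17 other neuronal migration genes Astn2 was higher, 16 were not called, and the median change was 0.00 to 2 decimals. Among 20 other cytoskeleton genes, Kif21b, a kinesin of axons and dendrites, fell by 0.47 (SE 0.08, limma adjusted p = 0.0194), 19 were not called, and the median was -0.05. The Kif21b call was lost without wildtype replicate 2 or 3 and without knockout replicate 1, 2 or 4 (limma adjusted p up to 0.0754). Of 32 measured paralogs of the 13 lower genes (other Apba, Rtn, Dclk, Tubb, Tagln, Syt, Astn and Gpc genes outside the set), 0 were called lower and 1, Astn2, higher. Nothing is read from these counts, since only 1.08% of all genes were called lower and 0.362% higher. At a limma unadjusted p under 0.05, Tubb4a, Rtn2, Dclk2, Syt14 and Gpc1 were lower. Astn2, Syt8, Syt6, Tubb6 and Gpc4 were higher at that threshold. The difference in change between a gene and its paralog was not tested.

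Of the remaining 4 genes, Mllt11, a small protein of differentiating neurons, read 8.29, 8.07, 8.23 and 7.99 in wildtype and 7.53, 7.70, 7.74 and 7.63 in knockout, without overlap. Mllt11 was 1.41-fold lower (change -0.49, SE 0.08, limma adjusted p = 0.0215), but not without wildtype replicate 1, 2 or 3 or knockout replicate 1 or 4 (limma adjusted p up to 0.0790). Uchl1, a ubiquitin hydrolase abundant in neurons and germ cells, read 8.70, 8.63, 8.51 and 7.90 in wildtype and 8.03, 7.38, 7.76 and 7.75 in knockout. Wildtype replicate 4 lay below knockout replicate 1, and the change of -0.71 (SE 0.18) missed the threshold (limma adjusted p = 0.0867). Without that wildtype array it was -0.88 and passed (limma adjusted p = 0.0175). The transcription factor gene Isl1, active in motor and sensory neurons and in the mesenchyme of the genital area, read 10.84, 10.40, 9.73 and 9.91 in wildtype and 10.31, 11.03, 10.29 and 10.27 in knockout, a spread that left the groups mixed (change 0.26, SE 0.24). Neurod1, a neuronal bHLH factor, was at 0.11 (SE 0.23).

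The members were also placed on the range of wildtype signal, divided at the quartiles of all genes. Signals of different probe sets do not rank genes by abundance. Of the 13 members between the median and the upper quartile, all lay below 0, as did 64.6% of all genes in that band, and 7 were called lower (Syt5, Astn1, Dcx, Kif5c, Tagln3, Mllt11 and Dclk1), against 2.15% of all genes there. Above the upper quartile 4 of 9 were called (Nsg1, Gpc2, Tubb2b and Syt11) against 1.22% of all genes. Between the lower quartile and the median 2 of 15 were called (Rtn1 and Apba2) against 0.930%. Below the lower quartile, which held Stmn4, Syt4, Scg3, Chgb and Neurod1, limma called 0 of 5, also 0 at an unadjusted p under 0.05, and 0.0207% of all genes there were called lower. Standard neuronal marks lay on both sides of the median. Tubb3, Mapt, Elavl3, Snap25 and Syt1 lay between the lower quartile and the median. Map1b, Stmn2, Nefl, Map2, Nefm and Gap43 lay above the median.

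**Figure D3:**
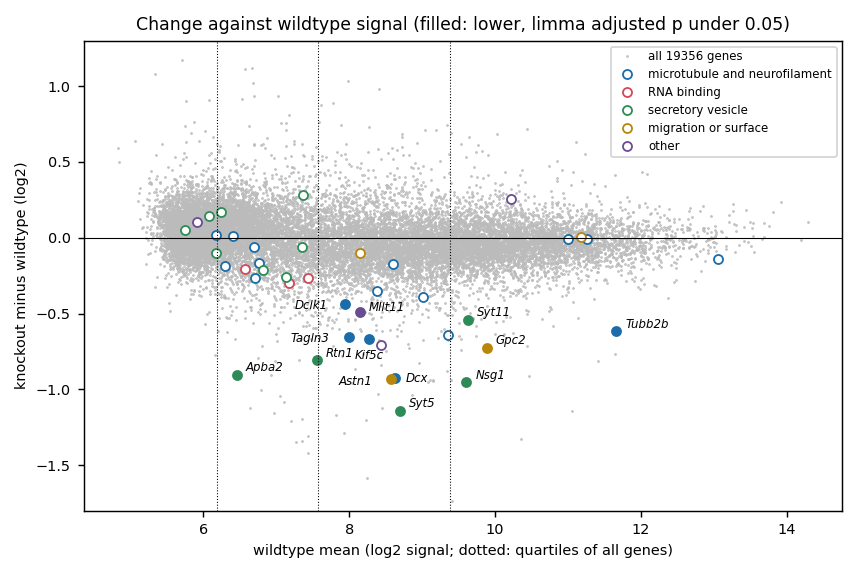
Change (vertical axis, knockout minus wildtype, log2) against wildtype mean signal (horizontal axis, log2) for the members, coloured by role, over all genes in grey, with dotted lines at the quartiles of all genes. The 13 filled members spread from Apba2 near 6.46 to Tubb2b near 11.66, and 2 of the grey genes lie outside the vertical range shown.

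The members also varied between arrays of the same genotype. The median SD within a genotype was 0.16 in wildtype and 0.18 in knockout for the 42 genes, against 0.12 and 0.10 for all genes. Each array's median deviation of the 42 genes from their means over the 8 arrays was 0.21, 0.24, 0.14 and 0.00 (to 2 decimals) on wildtype arrays 1 to 4 and -0.01, -0.30, -0.24 and -0.12 on knockout arrays 1 to 4. Wildtype replicate 4 and knockout replicate 1 thus lay next to each other, and wildtype replicate 2 and knockout replicate 2 were the farthest apart. Knockout replicate 2 was the lowest knockout array for 22 of the 42 members, where it was the lowest for 28.3% of all genes. Among the 29 members that were not called, knockout replicate 1 was the highest knockout array for 15, against 26.4% of all genes. Leaving out 1 array at a time left 6 to 12 members called lower, with 6 without wildtype replicate 2.

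**Figure D4:**
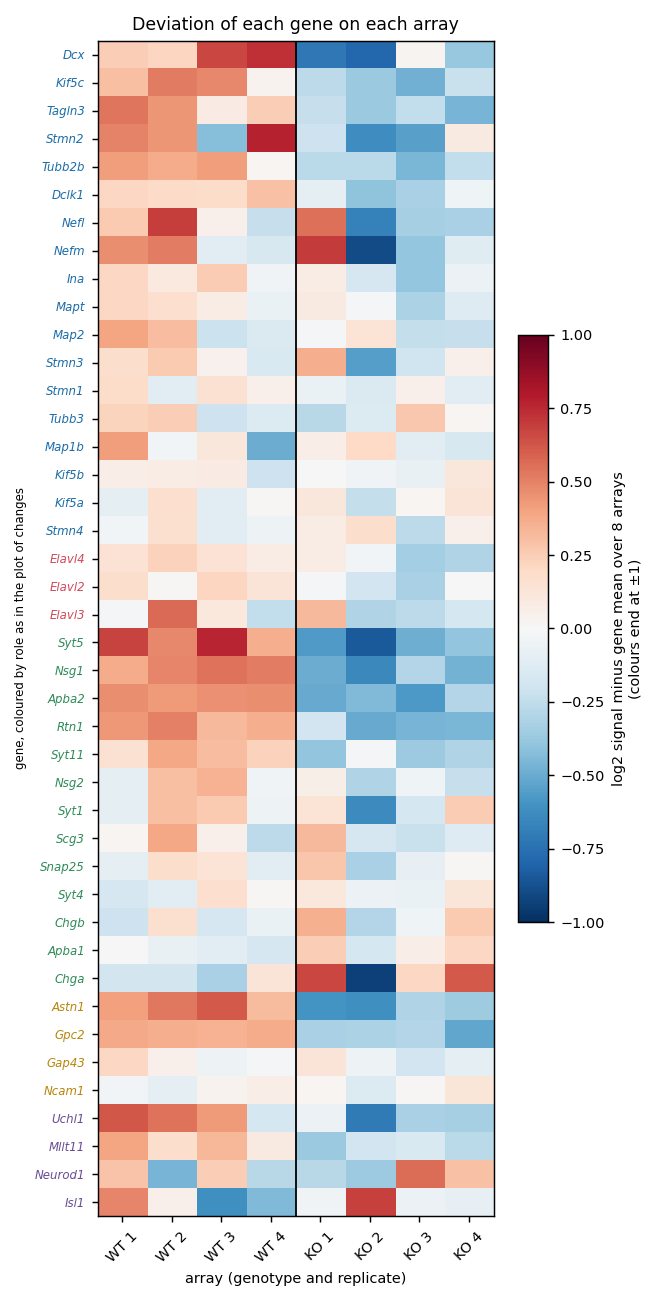
Deviation of each of the 42 genes (rows, coloured by role) on each of the 8 arrays (columns) from its mean over the arrays, in log2 signal, red for higher and blue for lower, with colours ending at ±1. Rows such as Gpc2 and Apba2 change colour at the line between the genotypes, whereas Nefm and Chga are red on knockout replicate 1 and blue on knockout replicate 2.

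Markers of nearby neuronal cells were read on the same arrays. Of 7 measured genes of autonomic and enteric neurons, limma called 0, 0 had an unadjusted p under 0.05, and their mean signal ran from 7.72 to 8.13 in wildtype and from 7.36 to 8.27 in knockout. In 6 of these 7 genes knockout replicate 1 was the highest knockout array, and in 6 replicate 2 was the lowest. The wildtype arrays also ranked alike, with replicate 2 the highest in 6 of the 7 genes and replicate 4 the lowest in 5. Th, which makes the catecholamine precursor, read 7.80, 5.92, 7.30 and 7.35 on the knockout arrays, and Dbh, chosen after its values were seen, read 9.03, 7.48, 8.29 and 9.01. Th and Dbh were at 7.25 to 7.56 and 8.47 to 9.11 on the wildtype arrays. Chga, Nefl, Nefm, Stmn3 and Syt1 were likewise lowest on knockout replicate 2. They are among the 22 of the 42 members for which it was the lowest knockout array. Of the 13 members called lower, 6 were among those 22. The part of autonomic cells in those values was not tested.

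Limma called 0 genes, over all genes tested, of motor neurons (7 measured, mean signal 6.25 to 6.52 in wildtype and 6.23 to 6.43 in knockout), dorsal root ganglion neurons (4 measured, 6.97 to 7.33 and 7.18 to 7.44) and neural tube progenitors (10 measured, 6.70 to 6.87 and 6.82 to 6.93). At an unadjusted p under 0.05 there were 0, 1 and 2 of them higher and 0 lower, against 7.29% and 9.38% of all genes. The 1 was Ntrk2, at 0.39 (SE 0.14), and the 2 were Dbx1, at 0.22 (SE 0.07), and Irx3, at 0.40 (SE 0.14). In wildtype the motor neuron genes ran from 5.75 (Mnx1) to 7.26 (Isl2), with 2 below the lower quartile of all genes and 5 between it and the median. The neural tube genes ran from 5.86 (Sox3) to 9.43 (Nes). Of these, 3 lay below the lower quartile, 6 between it and the median, and 1 above the upper quartile. Of 6 measured genes of migrating neural crest, Erbb3, the neuregulin receptor of crest and Schwann cell precursors, rose by 0.36 (SE 0.07, limma adjusted p = 0.0417) and 5 were not called, and the list's mean signal was 7.75 to 7.98 in wildtype and 7.83 to 8.01 in knockout. Leaving out any 1 array ended the Erbb3 call (limma adjusted p up to 0.113). At a limma unadjusted p under 0.05, 1 crest gene was higher, Erbb3, and 1 lower, Foxd3, at -0.48 (SE 0.18). Of 17 measured factors of neuronal differentiation limma called 0, with 2 lower and 1 higher at an unadjusted p under 0.05. Insm1, a zinc finger factor of neuroendocrine differentiation, had the lowest p of them, at 0.73 (SE 0.20, limma adjusted p = 0.106), and the median of the 17 was 0.02.
Muscle and erythroid genes were read as markers of tissue taken along with the ridge. Limma called 0 of 10 and 0 of 8, against 1.44% of all genes. Their mean signals were 6.91 to 6.99 and 8.68 to 9.32 in wildtype and 6.94 to 7.17 and 8.73 to 9.00 in knockout. At a limma unadjusted p under 0.05, 2 muscle genes were higher and 3 erythroid genes lower, against 7.29% and 9.38% of all genes. Of the muscle genes 8 lay above 0 (median change 0.04), and Des was at 0.38 (SE 0.08, limma adjusted p = 0.0600). Of the erythroid genes 7 lay below 0 (median change -0.22), and Rhag was at -0.45 (SE 0.13, limma adjusted p = 0.126). The part of muscle and erythroid tissue in the members' changes was not tested.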

How the data were processed

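The authors deposited log2 signals of 27478 probe sets from 8 arrays. RMA, which corrects background, quantile-normalizes arrays and sums up probes, and Partek are named per the submitters' processing notes, with no version or setting. The log2 scale was read from the values (4.30 to 14.62). Quantile normalization hides a shift of all genes together. Arrays carry no count of molecules, and their number, 4 per genotype, limits the precision. The labels call replicates independent without saying how embryos were divided among them. The p-values thus set the difference between genotypes against the spread between these samples within a genotype.

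Probe sets with exactly 1 gene symbol in the platform annotation (21103) were kept, 1531 had several symbols and 4844 none, and the brightest per gene gave 19356 genes, none removed for low level. Symbols were checked by gene identifier against RefSeq (80 without entry, 0 changed). The comparison used limma 3.58.1 under R 4.3.3 (lmFit, eBayes without trend, two-sided, Benjamini-Hochberg over all genes, threshold 0.05), which was tested on simulated data. Members, roles and lists were chosen with earlier results of these data known. All 43 members were to be named, with the called genes of other lists (or the lowest p-values) and paralogs by name. The lowest p-values were not named in every list without a call, and some genes there were named for their signal or values instead. Promoters came from RefSeq (GRCm38.p6), the 250 bases before each start. Figures were drawn with matplotlib 3.10.9.
Alternatives changed the centring, normalization, filter on level, probe set rule, moderation, array weights, covariates, threshold and promoter window, or left out 1 array.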

Additional observations from a re-analysis of the deposited data

Results flagged for a closer look

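In 6 of 86 sets of 4 arrays (the 42 measured genes and Sox11, in 2 genotypes) 1 array stood far from the other three of its genotype, where chance alone flags about 1 in 20. Wildtype replicate 4 was low for Tubb2b (11.37, next 11.72) and for Kif5b (10.79, next 11.07). Knockout replicate 3 was low for Tubb2b (10.89, next 11.08) and knockout replicate 4 for Gpc2 (9.00, next 9.20). Knockout replicate 1 was high for Rtn1 (6.96, next 6.69) and knockout replicate 2 for Isl1 (11.03, next 10.31).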

How the results depend on the processing

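Rtn1, Nsg1, Apba2, Syt5, Astn1 and Gpc2 were called lower under every alternative in which they were tested, and the same 6 were those called without moderation, without wildtype replicate 2, and at an adjusted p under 0.01. Filters on level removed Apba2 (25th percentile) or Apba2 and Rtn1 (median). In the other alternatives on all arrays 9 (replicate block) to 14 (array weights, or an adjusted p under 0.1) members were called lower and 0 higher. The median change of the members was -0.52 among genes above the median level, where fewer members were tested, and -0.32 to -0.19 when 1 array was left out. Over all genes, 209 lower and 70 higher became 137 lower after median centring (82 higher), 48 and 7 without moderation, 115 and 33 when Y-linked signal entered as covariate, 465 and 218 at an adjusted p under 0.1, and 60 and 11 at 0.01. Leaving out 1 array gave 88 to 192 lower and 17 to 55 higher, and 6 to 12 members lower. With the replicate number as a block 117 were lower and 49 higher. The labels do not say that numbers pair arrays, and same-numbered arrays correlated at -0.17 to 0.09 in their deviations from the group means, so the block stands as an alternative. Over Sox11, the members and the called genes of the other lists, 0 called changes reversed and 805 kept their side of the threshold. A call was lost in 95 cases and gained in 3 (Stmn2 once and Uchl1 in 2 alternatives). The cause was not tested. In the whole 300 bases 18.8% of all genes and 33.3% of members held ACAAAG, and GGACAGC, in 2 members before, was in 4 (14.8%, against 8.49% of all genes). Low signal limits what these arrays show for members near the bottom of the range.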
